A study of Amaranthus hybridus and Amaranthus hypochondriacus with 18 samples.

Results

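The leaf transcriptome of the grain amaranth Amaranthus hypochondriacus cv. Nutrisol was compared between plants kept without irrigation for 14 days and watered control plants. All transcripts of the 3 water-deficit and 3 control libraries were taken as members, so that 6 of the 18 libraries of the series and 12429 of 30946 transcripts (those that passed the filter on low counts) entered the comparison. Plants of a wild-type cultivar were grown in pots in a greenhouse, treatment began when they were a month old, and mature leaves that were not senescent (positions 5 to 7 counted from the shoot tip) were pooled, each pool giving 1 biological replicate. Another group, also of 3 libraries, received NaCl in steps of 0.15, 0.3 and 0.5 M over the same 14 days and is used below only where it shows what differed under water deficit. Each library held RNA of whole leaves, so that fewer cells of a type and less RNA per cell cannot be told apart.

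A leaf that loses water closes its stomata, which limits the CO2 that reaches the chloroplast, and abscisic acid is the hormone that links drying to stomatal closure and to much of the transcriptional response. Typical products of that response are dehydrins and related hydrophilic proteins, chaperones, raffinose-family sugars and compatible solutes such as glycine betaine, which leaves of the amaranth family make from choline. Amaranths fix carbon by the C4 pathway, in which carbonic anhydrase and phosphoenolpyruvate carboxylase capture CO2 in mesophyll cells and NAD-dependent malic enzyme releases it beside rubisco in the bundle sheath.

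The 6 libraries held 10920900 to 17232600 counts each, of which 94.2 to 97.1% fell on the 20 most abundant transcripts. The counts outside those 20 were therefore few, at 603482 to 753394 in controls and 320449 to 931751 under water deficit. The library water deficit 2 stood apart. It was the shallowest (320449), and its log2 CPM (counts per 1000000 after TMM scaling) correlated with the libraries water deficit 1 and 3 at r = 0.852 and 0.880 across transcripts, whereas those 2 correlated with each other at 0.934 and the controls among themselves at 0.925 to 0.928. Its correlation with the salt libraries was 0.874 to 0.882, against 0.843 to 0.849 for water deficit 1 and 0.866 to 0.885 for water deficit 3. All libraries were then thinned to equal counts outside the 20 most abundant transcripts, which left 7091 transcripts in place of 12429. Water deficit 2 then correlated at 0.869 to 0.877 with salt, 0.855 with water deficit 1 and 0.876 with water deficit 3. The thinned values with salt were 0.795 to 0.804 for water deficit 1 and 0.813 to 0.827 for water deficit 3. Thinned values with the controls were 0.782 to 0.839 for water deficit 2, 0.719 to 0.786 for water deficit 1 and 0.731 to 0.790 for water deficit 3. Before thinning, values with the controls were 0.807 to 0.836, 0.784 to 0.819 and 0.802 to 0.837 in the same order. Transcripts are not independent replicates, and these values describe the libraries only. Results are given below with and without this library wherever it decided them.

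In all, 342 of 12429 tested transcripts (2.75%) were up-regulated and 864 (6.95%) were down-regulated under water deficit, with DEGs defined by a false discovery rate (FDR) below 0.01 and a log2 fold change (log2FC) past 1 in either direction. The median log2FC was 1.73 for the up-regulated and -1.77 for the down-regulated DEGs, and 43 and 105 of them, respectively, moved by more than 3 on the log2 scale. In 860 of the 864 down-regulated DEGs every water-deficit library lay below every control, and in 305 of the 342 up-regulated DEGs every one lay above. Over all tested transcripts, 18.1% were lower and 14.0% were higher without overlap. In 36 up-regulated DEGs water deficit 2 lay at or below the highest control, against 1 for water deficit 1 and 0 for water deficit 3. Without water deficit 2 the counts were 540 up and 1040 down, and 327 of the 342 and 826 of the 864 DEGs were called again. Without water deficit 3 they were 176 up and 613 down, and without control 2 and control 3 the up-regulated counts were 208 and 201. The balance of directions rested on the scaling: with library totals alone the median transcript shifted by 0.38 on the log2 scale and the DEGs became 332 up and 313 down, a down-regulated share of 48.5% in place of 71.6%. All log2FC below are relative to the TMM scaling, under which the median of all tested transcripts was 0.01.

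Functional names were at hand for 896 tested transcripts, of which 125 were up-regulated and 356 down-regulated DEGs. The names come from the study's annotation, which covered mostly transcripts that responded to salt against the same controls. DEGs are therefore more frequent among named transcripts than among all tested transcripts. The counts for the gene groups below are descriptions and no independent evidence of a direction, and the counts among the 896 are their closer background. Identifiers are given without the shared prefix AhypoNutrisol_ and suffix _i1, and the 3 values of a group are CPM of libraries 1, 2 and 3. Of 487 transcripts in the 23 groups, 463 were tested, and 51 rose and 202 fell.

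Transcripts for light harvesting fell as a group. Of 30 tested members, 26 were down-regulated and none up-regulated, with a median log2FC of -2.78, and the 4 others also lay below 0. Chlorophyll a-b binding proteins hold the antenna pigments of both photosystems. For DN8072_c0_g1 the controls held 40.9, 65.4 and 68.5 CPM and the water-deficit libraries 1.67, 2.17 and 2.01 CPM (log2FC -4.90 ± 0.31 (SE), FDR = 2.0e-08). For DN7461_c0_g1 the values were 4.55, 12.4 and 16.6 CPM in controls and 0.159, 0 and 0.219 CPM under water deficit (log2FC -6.05 ± 0.56 (SE), FDR = 8.2e-07). A partial antenna transcript, DN17967_c0_g1, went from 8.5, 11.3 and 12.2 CPM to 0.397, 0.272 and 0.438 CPM (log2FC -4.73 ± 0.29 (SE), FDR = 1.2e-08). In all 3 the groups were far apart, and water deficit 2 sat with the other dry libraries. The 2 most abundant members that were no DEGs carry names of plastid-encoded proteins. The photosystem I apoprotein A2 (DN8389_c0_g6) measured 2314, 1731 and 4083 CPM in controls and 1028, 2337 and 834 CPM under water deficit (log2FC -0.95, FDR = 0.12), so that water deficit 2 lay inside the control range, and it was called down-regulated without that library (log2FC -1.52, FDR = 0.0042). The photosystem II protein CP43 (DN8419_c0_g1) had log2FC -0.77, FDR = 0.12.

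Pigment metabolism fell with the antenna. Of 17 tested transcripts of chlorophyll and carotenoid metabolism, 14 were down-regulated and none up-regulated (median log2FC -2.10), or 9 and none with library totals. Magnesium-chelatase subunit ChlH (DN6585_c0_g2), part of the enzyme that inserts magnesium into protoporphyrin, held 125, 172 and 190.4 CPM in controls and 20.0, 16.6 and 22.1 CPM under water deficit (log2FC -3.05 ± 0.25 (SE), FDR = 2.1e-07). Carotenoid cleavage dioxygenase 4 (DN4405_c0_g1), which breaks down carotenoids, fell more, from 75.3, 78.6 and 86.9 CPM to 3.81, 4.89 and 4.9 CPM (log2FC -4.14 ± 0.21 (SE), FDR = 2.4e-09). Both were tight within groups, and no library overlapped. The magnesium-protoporphyrin IX monomethyl ester enzyme (DN3556_c0_g2) fell alike (log2FC -2.74, FDR = 6.4e-08), whereas uroporphyrinogen decarboxylase 1 (DN7227_c0_g2; log2FC 0.07, FDR = 0.93), which acts before the branch to chlorophyll, and a geranylgeranyl pyrophosphate transcript (DN3033_c0_g2; log2FC 0.55, FDR = 0.16) were no DEGs.

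None of the 7 tested markers of light stress and senescence rose and 5 fell (median log2FC -2.11). Early light-induced proteins, which bind pigments under excess light, fell in all 3 transcripts with that name: DN1631_c0_g1 went from 13.3, 13.5 and 13.2 CPM to 0.873, 2.31 and 1.49 CPM (log2FC -3.18 ± 0.29 (SE), FDR = 6.3e-07), DN7781_c1_g2 had log2FC -2.63, FDR = 4.9e-07, and DN7781_c1_g1 had log2FC -2.11, FDR = 3.9e-05. The senescence-specific cysteine protease SAG39-like (DN4241_c0_g1) held 6.82, 13.9 and 10.5 CPM in controls and 0.397, 0.815 and 2.41 CPM under water deficit (log2FC -2.87 ± 0.40 (SE), FDR = 6.6e-05). A senescence regulator (DN23705_c0_g1; log2FC -0.35, FDR = 0.51) and a senescence-associated protein DH (DN872_c0_g1; log2FC -0.46, FDR = 0.29) were no DEGs.

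**Figure D1:**
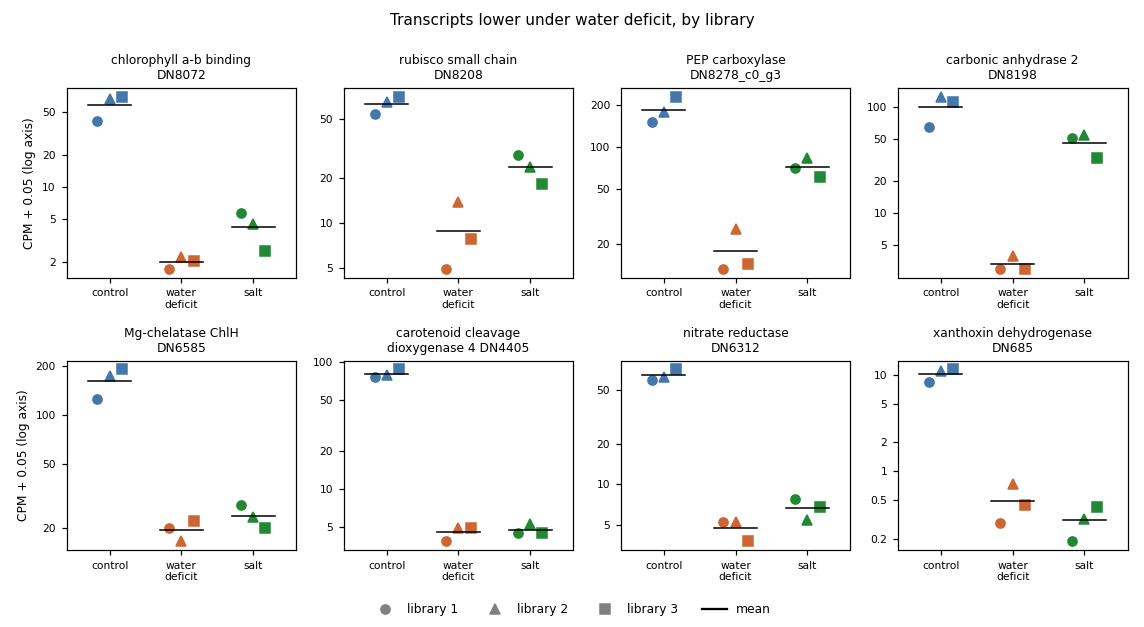
Each panel plots 1 transcript, with the group on the horizontal axis and CPM + 0.05 on a log vertical axis; points are single libraries (shape gives the library number) and black lines are means of 3. In every panel the 3 water-deficit libraries lie below the 3 controls, and for carbonic anhydrase 2 (2.93 to 3.94 CPM) they also lie far below the salt libraries (32.7 to 54.2 CPM).

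Carbon fixation fell as well, and many of its members fell further than under salt. The group was built from names for the Calvin cycle, C4 cycle and photorespiration. It also holds cytosolic forms of glyceraldehyde-3-phosphate dehydrogenase, phosphoglycerate kinase and fructose-bisphosphate aldolase, which belong to glycolysis. Of its 35 tested transcripts, 25 were down-regulated and 1 up-regulated, or 18 and 1 with library totals, with a median log2FC of -1.85. Without control 2 or without control 3, 21 were down-regulated. The rubisco small chain (DN8208_c0_g1), the nuclear-encoded subunit of the CO2-fixing enzyme, held 54.2, 65.9 and 70.7 CPM in controls and 4.84, 13.7 and 7.79 CPM under water deficit (log2FC -2.88 ± 0.31 (SE), FDR = 3.7e-06). Phosphoenolpyruvate carboxylase (DN8278_c0_g3) went from 150.0, 176 and 227 CPM to 13.2, 25.7 and 14.4 CPM (log2FC -3.38 ± 0.30 (SE), FDR = 5.0e-07). Carbonic anhydrase 2 (DN8198_c0_g1), which hydrates CO2 to bicarbonate ahead of that enzyme, fell from 65.2, 124 and 112 CPM to 2.94, 3.94 and 2.93 CPM (log2FC -4.96 ± 0.32 (SE), FDR = 2.0e-08). All 3 sets of libraries were apart, although water deficit 2 kept the highest level of the dry libraries in each. A chloroplastic beta carbonic anhydrase (DN746_c0_g1) had log2FC -4.67, FDR = 1.5e-06 and alanine aminotransferase 2 (DN7703_c0_g3), which moves carbon between the cell types of NAD-malic-enzyme C4 leaves, had log2FC -3.46, FDR = 8.0e-07. The enzyme that gives that C4 subtype its name, NAD-dependent malic enzyme (DN7973_c0_g1, the 59 kDa subunit), moved less, from 15.3, 21.5 and 20.4 CPM to 8.18, 11.3 and 10.2 CPM (log2FC -0.96 ± 0.20 (SE), FDR = 0.0024), and missed the fold limit. It was called down-regulated without water deficit 2 (log2FC -1.04, FDR = 8.8e-04). The kinase that activates phosphoenolpyruvate carboxylase (DN6327_c0_g1) likewise missed it (log2FC -0.96, FDR = 0.0064), and was called without water deficit 1 (log2FC -1.18, FDR = 0.003). The single up-regulated member was a mitochondrial alanine-glyoxylate aminotransferase 2 homolog (DN27375_c0_g1), a class of enzyme that converts glyoxylate, at 1.43, 2.43 and 1.74 CPM in controls and 8.42, 3.81 and 6.35 CPM under water deficit (log2FC 1.75 ± 0.28 (SE), FDR = 2.4e-04).

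Tested directly against salt, 16 of the 35 transcripts of this group, cytosolic forms included, were lower and 2 higher under water deficit. Of all tested transcripts 2.36% and 1.75% were called in those directions. Carbonic anhydrase 2 held 51.0, 54.2 and 32.7 CPM under salt and was lower under water deficit by a difference of -3.84 ± 0.30 (SE) on the log2 scale, FDR = 4.3e-06. Phosphoenolpyruvate carboxylase held 70.4, 82.9 and 60.4 CPM under salt (difference -2.01 ± 0.28 (SE) on the log2 scale, FDR = 3.8e-04), and the rubisco small chain held 28.8, 24.0 and 18.2 CPM (difference -1.46 ± 0.30 (SE) on the log2 scale, FDR = 0.0046). The malic enzyme stood out because salt moved it the other way, to 44.8, 46.1 and 42.9 CPM, and the difference was -2.18 ± 0.20 (SE) on the log2 scale, FDR = 1.0e-05. The carboxylase kinase was instead higher under water deficit than under salt, where it held 4.48, 4.52 and 3.24 CPM (difference 2.0 ± 0.24 (SE) on the log2 scale, FDR = 1.4e-04). The count of lower members became 6, 18 and 5 when water deficit 1, 2 and 3 were left out in turn. The differences of carbonic anhydrase 2, the malic enzyme and the kinase were called whichever library was left out. For phosphoenolpyruvate carboxylase and the rubisco small chain this was not examined.

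Starch and sugar transcripts split. Of 35 tested, 13 were down-regulated and 3 up-regulated, or 5 and 3 with library totals, with a median log2FC of 0.21. The 3 became 0 without control 3 and 1 without water deficit 3. The 2 largest declines were of enzymes on the path to starch: granule-bound starch synthase (DN4958_c0_g1), which makes amylose, went from 83.2, 101 and 102 CPM to 10.9, 4.08 and 8.49 CPM (log2FC -3.58 ± 0.31 (SE), FDR = 3.5e-07). Chloroplastic glucose-6-phosphate isomerase 1 (DN4274_c0_g2), which feeds hexose phosphate toward starch, fell from 17.3, 28.5 and 28.7 CPM to 1.98, 2.04 and 1.88 CPM (log2FC -3.66 ± 0.24 (SE), FDR = 2.4e-08). Among sugar exporters of the SWEET family, SWEET7-like (DN19007_c0_g1) was down-regulated (log2FC -2.84, FDR = 0.0019) and both SWEET1 transcripts (DN2965_c0_g1; log2FC 2.97, FDR = 0.0014, and DN2965_c0_g2; log2FC 2.59, FDR = 0.0018) were up-regulated. The SWEET transcripts had under 2 CPM in every library and their calls were not stable: SWEET7-like lost its call without control 1, control 3 or water deficit 3 (FDR = 0.011 to 0.028), and the SWEET1 pair without control 3 or water deficit 3 (FDR = 0.012 to 0.02) and without control 1, control 3 or water deficit 3 (FDR = 0.014 to 0.016). The inactive beta-amylase 9 (DN522_c0_g2; log2FC 1.15, FDR = 0.0015) was up-regulated but not without control 1 or control 3 (FDR = 0.012 to 0.013). Beta-amylase 1 (DN3518_c0_g1), which breaks down starch in the chloroplast, measured 44.0, 8.43 and 25.9 CPM under water deficit against 22.6, 20.1 and 22.2 CPM in controls and was no DEG (log2FC 0.29, FDR = 0.64), with water deficit 2 below every control and the other 2 above. The small subunit of glucose-1-phosphate adenylyltransferase (DN7348_c0_g1) missed both limits (log2FC -0.72, FDR = 0.014).

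**Figure D2:**
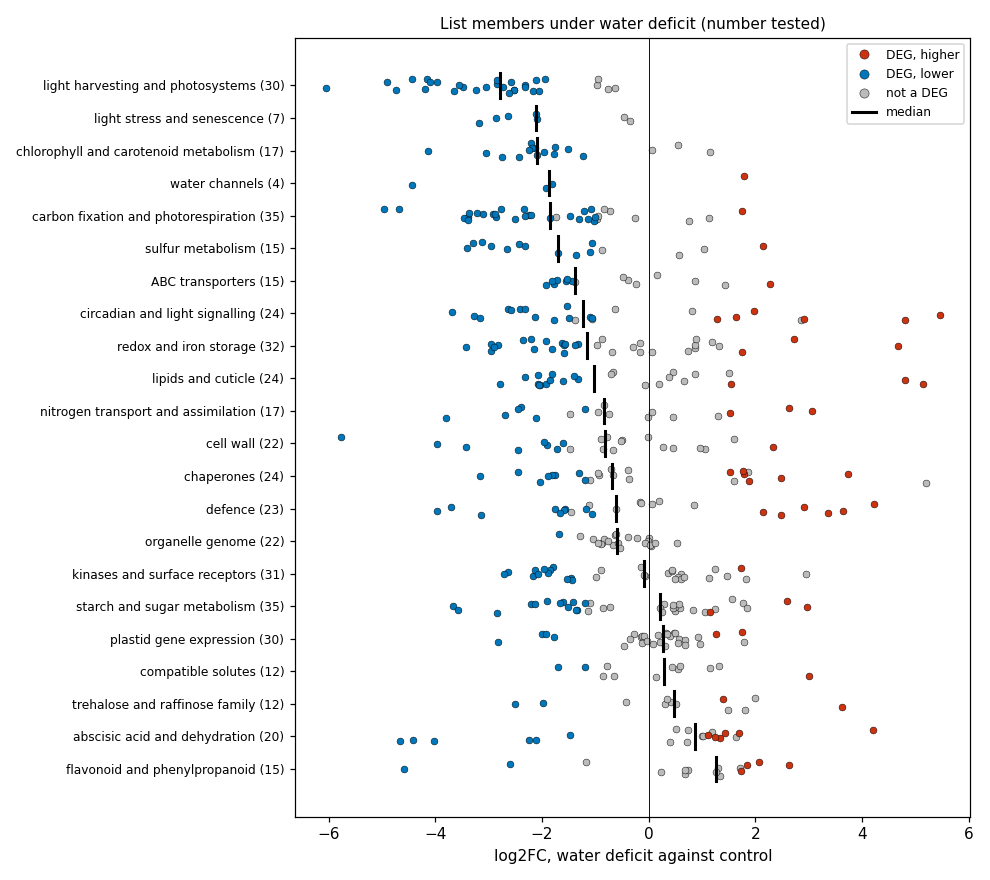
Each point is 1 tested transcript of a gene group, placed by its log2FC for water deficit against control on the horizontal axis; red points are up-regulated DEGs, blue points down-regulated DEGs, grey points neither, and black bars are group medians, with the number tested in parentheses. The medians run from -2.78 for light harvesting and photosystems to 1.27 for flavonoids and phenylpropanoids. The group of viral names, with 3 tested transcripts, is not shown.

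In several dehydration genes the water-deficit libraries parted. Of 20 tested members of the abscisic acid and dehydration group, 6 were up-regulated and 6 down-regulated (median log2FC 0.86). Without water deficit 2 the count was 10 up and 5 down, without water deficit 1 it was 2 and 5, and without water deficit 3 it was 3 and 5. Dehydrins are hydrophilic proteins that accumulate in drying tissue, and the dehydrin-like transcript DN1154_c0_g2 measured 9.18, 10.7 and 9.14 CPM in controls and 53.1, 2.99 and 33.0 CPM under water deficit (log2FC 1.64 ± 0.53 (SE), FDR = 0.036). ASR proteins are induced by abscisic acid, stress and ripening, and the ASR2 transcript DN8197_c1_g1 measured 18.9, 20.2 and 22.6 CPM and 82.4, 7.47 and 49.2 CPM (log2FC 1.18 ± 0.48 (SE), FDR = 0.095). Each was well above the controls in water deficit 1 and 3 and below every control in water deficit 2, nearer to the salt libraries, which held 3.2, 3.3 and 3.13 CPM of the dehydrin and 4.34, 4.73 and 6.32 CPM of ASR2. Neither was a DEG with all libraries, and both were without water deficit 2 (log2FC 2.16, FDR = 8.8e-08, and log2FC 1.69, FDR = 7.6e-06). The cold- and drought-regulated CORA-like transcript (DN7342_c0_g1) had 0.589, 0.0715 and 0.0831 CPM in controls and 4.21, 0 and 7.48 CPM under water deficit (log2FC 4.21 ± 1.04 (SE), FDR = 0.0085), a call lost without control 1, control 2, control 3, salt 2, water deficit 1 or water deficit 3 (FDR = 0.014 to 0.09).

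In the other tested members named here every dry library lay on the same side of the controls. A transcript named as a cold-regulated plasma membrane protein (DN3765_c0_g2) rose from 1.18, 1.79 and 0.831 CPM to 2.62, 4.21 and 3.76 CPM (log2FC 1.44 ± 0.26 (SE), FDR = 7.8e-04). A further cold-regulated transcript (DN605_c0_g2; log2FC 1.69, FDR = 0.0058) lost its call without control 2, control 3, water deficit 1 or water deficit 3 (FDR = 0.012 to 0.033). Protein phosphatases 2C, some of which restrain abscisic acid signalling until the receptor binds them, moved in both directions. PP2C 56 (DN5522_c0_g1) rose from 1.85, 1.72 and 1.83 CPM to 5.32, 2.99 and 4.11 CPM (log2FC 1.23 ± 0.24 (SE), FDR = 0.0015), and PP2C 37 (DN7888_c0_g1) measured 5.89, 6.01 and 4.32 CPM and 15.7, 7.07 and 11.9 CPM (log2FC 1.12 ± 0.24 (SE), FDR = 0.0029). PP2C 34 (DN4971_c0_g1) fell (log2FC -2.11 ± 0.21 (SE), FDR = 1.5e-06), as did PP2C 49 (DN8808_c0_g1; log2FC -1.48, FDR = 0.0058). In both rises water deficit 2 was the lowest of the dry libraries. PP2C 3 (DN19639_c0_g1) did not pass the filter, with 2, 0 and 3 counts in controls and 38, 3 and 57 counts under water deficit. Of the calls PP2C 34 held whichever library was left out, PP2C 56 was lost without control 2 (FDR = 0.012), PP2C 37 without control 1, control 2, control 3, water deficit 1 or water deficit 3 (FDR = 0.013 to 0.031) and PP2C 49 without control 2, control 3, water deficit 1, water deficit 2 or water deficit 3 (FDR = 0.013 to 0.054). Xanthoxin dehydrogenase makes abscisic aldehyde, the precursor of abscisic acid, and all 3 transcripts with that name fell in every dry library. DN685_c0_g2 went from 8.42, 10.9 and 11.4 CPM to 0.238, 0.679 and 0.394 CPM (log2FC -4.66 ± 0.29 (SE), FDR = 1.7e-08), DN22963_c0_g1 had log2FC -4.03, FDR = 1.3e-05, and DN3444_c0_g1 had 62 counts in the controls and 3 under water deficit, 23.3-fold lower after scaling (95% exact interval 7.62 to 116, counting error only).

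**Figure D3:**
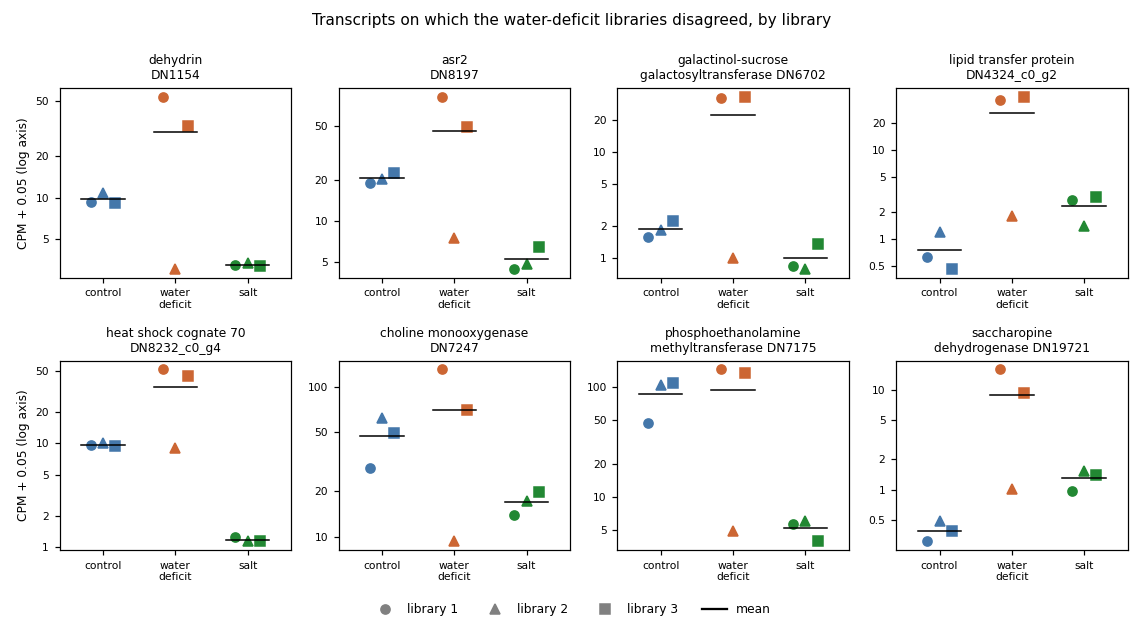
Each panel plots 1 transcript, with the group on the horizontal axis and CPM + 0.05 on a log vertical axis; points are single libraries (shape gives the library number) and black lines are means of 3. Water deficit 1 and 3 lie above the controls in every panel, and water deficit 2 lies below all controls for the dehydrin (2.99 CPM), ASR2, the galactosyltransferase, the heat shock cognate 70, choline monooxygenase and the phosphoethanolamine methyltransferase.

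Some transcripts for sugars and solutes that protect drying cells divided the same way. Galactinol-sucrose galactosyltransferase 2 (DN6702_c0_g1), which makes raffinose, measured 1.52, 1.79 and 2.16 CPM in controls and 32.0, 0.951 and 32.6 CPM under water deficit (log2FC 3.62 ± 0.67 (SE), FDR = 8.9e-04), so that 2 libraries lay above every control and water deficit 2 below them. The call was lost without control 1 or control 2 (FDR = 0.012 to 0.013) and read log2FC 4.16, FDR = 7.8e-11 without water deficit 2. Under salt the transcript held 0.777, 0.731 and 1.3 CPM, a difference from water deficit of 4.62 ± 0.69 (SE) on the log2 scale, FDR = 6.0e-04, which was called whichever library was left out. Galactinol synthase supplies the galactosyl donor. Galactinol synthase 1 (DN9331_c0_g1) did not pass the filter and was not tested, with 0, 4 and 1 counts in controls, 152, 0 and 173 counts under water deficit and 3, 7 and 7 counts under salt, so that it was high in water deficit 1 and 3 and not detected in water deficit 2. Galactinol synthase 1-like (DN17394_c0_g1) moved the other way, from 4.97, 7.51 and 5.82 CPM to 0.794, 4.08 and 0.919 CPM (log2FC -1.98 ± 0.39 (SE), FDR = 0.0014), and lost its call without control 2, water deficit 1 or water deficit 3 (FDR = 0.014 to 0.028). Of 12 tested transcripts of the trehalose and raffinose group 2 rose and 2 fell (median log2FC 0.47). Galactokinase (DN2861_c0_g2; log2FC 1.38, FDR = 7.4e-04) was the other that rose. Inositol oxygenase 1 (DN7924_c0_g2), which consumes myo-inositol, fell from 25.3, 31.1 and 34.2 CPM to 4.21, 7.47 and 4.77 CPM (log2FC -2.50 ± 0.22 (SE), FDR = 5.1e-07). The 2 most abundant trehalose-phosphate synthase transcripts were no DEGs (DN3965_c0_g1; log2FC -0.43, FDR = 0.18, and DN6897_c0_g1; log2FC 0.35, FDR = 0.23).

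In the compatible-solute group 1 of 12 tested transcripts rose and 2 fell (median log2FC 0.28), or 2 and 0 with library totals. Glycine betaine is made from choline by choline monooxygenase, and choline from phosphoethanolamine by a methyltransferase. Choline monooxygenase (DN7247_c0_g1) measured 28.5, 61.9 and 49.3 CPM in controls and 130.2, 9.24 and 69.6 CPM under water deficit (log2FC 0.59 ± 0.54 (SE), FDR = 0.5). Phosphoethanolamine N-methyltransferase (DN7175_c0_g1) measured 47.2, 105 and 108 CPM and 145, 4.89 and 134 CPM (log2FC 0.13 ± 0.65 (SE), FDR = 0.92). Both were highest in water deficit 1 and 3 and lowest of the 6 libraries in water deficit 2. Without water deficit 2 the monooxygenase was called up-regulated (log2FC 1.11, FDR = 0.0078) and the methyltransferase was not (log2FC 0.70, FDR = 0.091). The transcript that rose in every dry library was proline dehydrogenase (DN6932_c0_g3), which degrades proline, from 0.673, 0.858 and 0.582 CPM to 3.73, 7.88 and 5.95 CPM (log2FC 2.99 ± 0.30 (SE), FDR = 1.8e-06). Glutamate decarboxylase 1 (DN4191_c0_g1), which makes GABA, fell evenly from 14.5, 15.1 and 14.7 CPM to 4.76, 4.48 and 4.42 CPM (log2FC -1.70 ± 0.17 (SE), FDR = 1.7e-06), and an amino acid transporter 3-like transcript (DN26767_c0_g1) had log2FC -1.19, FDR = 1.4e-04.

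Over all tested transcripts, 356 lay above every control in water deficit 1 and 3 and below every control in water deficit 2. The converse counts, with water deficit 1 or water deficit 3 as the library below the controls, were 125 and 68. Of the 356, 13 were members of the gene groups, which held 463 of the 12429 tested transcripts. These shares are close, so the division was no more frequent in the gene groups than elsewhere.

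Chaperones also divided, by transcript as well as by library. Of 24 tested members 6 rose and 8 fell (median log2FC -0.69). Without water deficit 2 the count was 8 and 9, without water deficit 3 it was 3 and 8, and with library totals it was 9 and 5. The 2 heat shock cognate 70 transcripts of 1 assembled component went opposite ways. DN8232_c0_g4 measured 9.6, 10.0 and 9.47 CPM in controls and 51.9, 8.97 and 44.5 CPM under water deficit (log2FC 1.87 ± 0.39 (SE), FDR = 0.0024), and DN8232_c0_g3 measured 76.4, 93.1 and 88.7 CPM and 26.1, 23.6 and 23.4 CPM (log2FC -1.82 ± 0.21 (SE), FDR = 9.0e-06). The rise lost its call without control 1, control 2, control 3, water deficit 1 or water deficit 3 (FDR = 0.015 to 0.021), while the decline held whichever library was left out. As only uniquely mapped reads were counted, near-identical copies may share reads and the split between them is uncertain. Under salt both were far lower, at 1.19, 1.08 and 1.08 CPM and 5.12, 3.46 and 5.24 CPM, and the differences from water deficit were 4.98 ± 0.46 (SE) on the log2 scale, FDR = 1.0e-05, and 2.41 ± 0.22 (SE) on the log2 scale, FDR = 1.0e-05.

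The small 17.4 kDa class I heat shock protein (DN23770_c0_g1) rose from 0.842, 0.929 and 0.499 CPM to 3.02, 1.49 and 6.96 CPM (log2FC 2.48 ± 0.44 (SE), FDR = 5.8e-04), with the call lost without water deficit 3 (FDR = 0.011). It held 0.32, 0.271 and 0.216 CPM under salt, a difference of 3.95 ± 0.45 (SE) on the log2 scale, FDR = 9.9e-05. Heat shock protein 83 (DN952_c0_g2) measured 0.505, 1.0 and 0.332 CPM in controls, 1.43, 0.679 and 2.93 CPM under water deficit and 0.0457, 0.108 and 0 CPM under salt. It was no DEG against control (log2FC 1.60, FDR = 0.027, or log2FC 1.87, FDR = 0.0028 without water deficit 2) but was higher than under salt by 4.77 ± 0.62 (SE) on the log2 scale, FDR = 2.5e-04. Heat shock cognate protein 80 (DN8381_c0_g1; log2FC -0.38, FDR = 0.19), Hsp70 transcripts DN4358_c0_g1 (log2FC -0.37, FDR = 0.35) and mitochondrial DN7656_c1_g1 (log2FC -0.94, FDR = 6.2e-04), and the heat shock factor HSF30 (DN19638_c0_g1; log2FC -0.68, FDR = 0.1) were no DEGs against control. Heat shock protein 90-1 (DN9278_c0_g1), which did not pass the filter, had 7, 4 and 1 counts in controls and 9, 1 and 33 counts under water deficit. Hsp70 17 (DN23887_c0_g1) had log2FC 1.53, FDR = 0.0055 and lost its call without control 1, control 2, control 3, salt 1, salt 3, water deficit 1 or water deficit 3 (FDR = 0.011 to 0.038).

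J-domain proteins, the co-chaperones that hand clients to Hsp70, moved both ways. The chloroplastic DnaJ DN6921_c0_g1 had 3 counts in the controls and 48 under water deficit, 14.2-fold higher after scaling (95% exact interval 4.57 to 71.1, counting error only; FDR = 5.2e-05). DN2713_c0_g1 went from 3.7, 3.22 and 3.66 CPM to 11.5, 15.6 and 9.8 CPM (log2FC 1.79 ± 0.22 (SE), FDR = 1.7e-05), and its partner DN2713_c0_g2 had log2FC 1.76, FDR = 1.5e-05. Down-regulated were DN9822_c0_g1 (log2FC -1.89, FDR = 2.2e-05), DN5493_c0_g1 (log2FC -2.04, FDR = 2.3e-05) and the chaperone-domain transcripts DN6867_c0_g1 (log2FC -2.44, FDR = 4.5e-05) and DN6867_c0_g3 (log2FC -3.17, FDR = 1.6e-05). Against salt, 9 of the 24 chaperone transcripts were higher and 3 lower under water deficit. Without water deficit 1, 2 and 3 in turn the counts were 8 and 2, 10 and 4, and 6 and 2.

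Among 24 tested transcripts of lipids and cuticle 12 fell and 3 rose (median log2FC -1.02), or 4 and 3 with library totals, and the 3 held some of the largest rises with a name. Lipid transfer proteins carry lipids to the cell surface, and DN4324_c0_g2 measured 0.589, 1.14 and 0.415 CPM in controls and 35.8, 1.77 and 38.5 CPM under water deficit (log2FC 5.13 ± 0.76 (SE), FDR = 1.1e-04). The adjacent transcript of the same component, DN4324_c0_g1, measured 0.253, 1.14 and 0.665 CPM and 27.9, 2.17 and 28.0 CPM (log2FC 4.81 ± 0.69 (SE), FDR = 8.9e-05). Both exceeded every control in all 3 dry libraries, though by little in water deficit 2, and as possible near copies they may not be separate measurements. Both also exceeded salt, with differences of 3.52 ± 0.62 (SE) on the log2 scale, FDR = 0.002, and 3.32 ± 0.57 (SE) on the log2 scale, FDR = 0.0016, which were lost without water deficit 3 or any of the salt libraries and, for DN4324_c0_g2, also without water deficit 1. Acetyl-CoA carboxylase 1 (DN7574_c0_g1), which commits carbon to fatty acids, rose evenly from 20.2, 15.2 and 17.5 CPM to 58.9, 42.0 and 53.0 CPM (log2FC 1.54 ± 0.21 (SE), FDR = 4.6e-05). The chloroplastic omega-3 desaturase (DN13940_c0_g2), which makes trienoic membrane lipids, fell from 1.85, 3.36 and 2.58 CPM to 0.159, 0.544 and 0.438 CPM (log2FC -2.79 ± 0.36 (SE), FDR = 2.7e-05). The phospholipase A1 transcripts DN4726_c0_g1 (log2FC -2.31, FDR = 9.0e-06) and DN20247_c0_g1 (log2FC -2.08, FDR = 1.5e-05) fell as well. 3-ketoacyl-CoA synthase 10 (DN1303_c0_g1; log2FC -0.07, FDR = 0.87), which elongates fatty acids for wax, and the beta subunit of acetyl-CoA carboxyltransferase (DN8422_c0_g3; log2FC -0.71, FDR = 0.091) were no DEGs.

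Among 32 tested redox transcripts 16 were down-regulated and 3 up-regulated (median log2FC -1.15), or 7 and 3 with library totals. The 3 that rose act in thiol and ascorbate chemistry. Nucleoredoxin 2 (DN4536_c0_g1), a thioredoxin-like oxidoreductase, went from 0.421, 0.572 and 0.166 CPM to 12.3, 3.94 and 13.1 CPM (log2FC 4.67 ± 0.44 (SE), FDR = 9.9e-07) and exceeded salt, at 2.28, 2.3 and 1.89 CPM, by 2.23 ± 0.30 (SE) on the log2 scale, FDR = 3.3e-04. DHAR2 (DN288_c0_g1), which regenerates ascorbate, went from 0.505, 0.357 and 0.499 CPM to 3.1, 1.49 and 3.76 CPM (log2FC 2.73 ± 0.35 (SE), FDR = 3.0e-05), with 0.32, 0.325 and 0.378 CPM under salt and a difference of 3.13 ± 0.32 (SE) on the log2 scale, FDR = 2.2e-05. No dry library overlapped a control in either, and both differences from salt were called whichever library was left out. Gamma-glutamylcyclotransferase 2-2 (DN905_c0_g1), a glutathione-degrading enzyme, had log2FC 1.75, FDR = 4.1e-04. Of those that fell, peroxidase 57-like (DN6722_c0_g1) went from 13.6, 19.5 and 20.7 CPM to 0.953, 2.04 and 2.01 CPM (log2FC -3.42 ± 0.27 (SE), FDR = 1.5e-07), and peroxidase 56 (DN21971_c0_g1; log2FC -2.95, FDR = 2.0e-04) and a glutaredoxin (DN18481_c0_g1; log2FC -2.96, FDR = 5.1e-05) fell too. Monodehydroascorbate reductase (DN7421_c0_g1; log2FC 0.88, FDR = 0.0019) and glutathione hydrolase 3 (DN6191_c0_g1; log2FC -0.70, FDR = 0.016) were no DEGs.

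**Figure D4:**
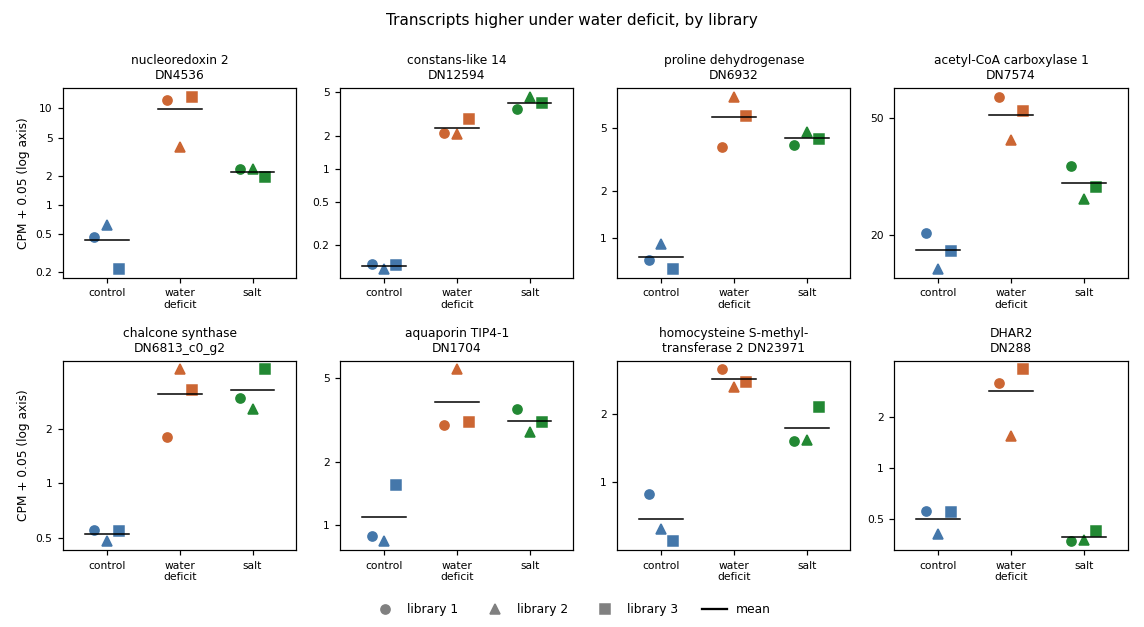
Each panel plots 1 transcript, with the group on the horizontal axis and CPM + 0.05 on a log vertical axis; points are single libraries (shape gives the library number) and black lines are means of 3. All 3 water-deficit libraries lie above all controls in every panel, from 1.49 to 3.76 CPM for DHAR2 and from 42.0 to 58.9 CPM for acetyl-CoA carboxylase 1.

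Among 15 tested transcripts of sulfur metabolism 11 were down-regulated and 1 up-regulated (median log2FC -1.70), or 6 and 1 with library totals. Adenylylsulfate reductase 3 (DN21241_c0_g1), which reduces activated sulfate, went from 3.28, 2.29 and 2.49 CPM to 0.318, 0.136 and 0.35 CPM (log2FC -3.12 ± 0.35 (SE), FDR = 5.6e-06). A sulfate transporter (DN17976_c0_g1; log2FC -3.29, FDR = 1.6e-05) and a cyanoalanine and cysteine synthase (DN10909_c0_g1; log2FC -3.41, FDR = 2.1e-04) also fell. Homocysteine S-methyltransferase 2 (DN23971_c0_g1), which makes methionine, rose evenly from 0.842, 0.572 and 0.499 CPM to 3.1, 2.58 and 2.71 CPM (log2FC 2.14 ± 0.29 (SE), FDR = 4.4e-05). Serine acetyltransferase 1 (DN6681_c0_g2; log2FC -0.87, FDR = 0.046) and a second sulfate transporter (DN15986_c0_g1; log2FC 0.57, FDR = 0.22) were no DEGs. Methionine gamma-lyase (DN22132_c0_g1), which cleaves methionine, was too low to be tested, with 0, 0 and 1 counts in controls and 15, 0 and 16 counts under water deficit.

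Among 17 tested nitrogen transcripts 6 fell and 3 rose (median log2FC -0.84), or 3 and 3 with library totals and 1 up without control 2. Nitrate reductase (DN6312_c0_g2), the first step of nitrate assimilation, went from 60.2, 62.4 and 71.8 CPM to 5.24, 5.16 and 3.72 CPM (log2FC -3.80 ± 0.23 (SE), FDR = 1.1e-08). Ammonium transporter 1 member 2-like (DN6701_c0_g2) went from 20.8, 17.9 and 18.8 CPM to 3.26, 3.13 and 2.58 CPM (log2FC -2.70 ± 0.27 (SE), FDR = 2.2e-06). Both fell in all 3 dry libraries alike. An NRT1/PTR transporter (DN24648_c0_g1; log2FC -2.45, FDR = 0.0018) lost its call without control 2 or water deficit 1 (FDR = 0.012 to 0.016) and was not tested without control 1. Glutamate synthase 1, which makes glutamate from glutamine, rose in both its transcripts, DN7123_c0_g2 from 2.19, 1.86 and 2.91 CPM to 29.7, 2.99 and 23.8 CPM (log2FC 3.05 ± 0.51 (SE), FDR = 3.3e-04) and DN4539_c0_g1 from 1.94, 1.07 and 1.33 CPM to 10.6, 1.63 and 12.9 CPM (log2FC 2.63 ± 0.47 (SE), FDR = 6.2e-04). Both rises were small in water deficit 2, which lay inside the control range for DN4539_c0_g1, and the call of DN4539_c0_g1 was lost without control 2 (FDR = 0.011). A vacuolar cationic amino acid transporter (DN5877_c0_g1; log2FC 1.52, FDR = 0.0045) lost its call without control 2, control 3, water deficit 1 or water deficit 3 (FDR = 0.016 to 0.033). A second NRT1/PTR transporter (DN6970_c0_g1; log2FC 0.07, FDR = 0.85) and amino acid permease 6-like (DN8639_c0_g2; log2FC -0.74, FDR = 0.11) were no DEGs, and the former was higher than under salt by 1.66 ± 0.20 (SE) on the log2 scale, FDR = 1.3e-04. The permease was called down-regulated without water deficit 1 (log2FC -1.33, FDR = 0.0022).

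Clock and light-signalling transcripts moved in both directions, with 13 of 24 tested down-regulated and 6 up-regulated (median log2FC -1.24), or 8 and 6 with library totals. CONSTANS-like 14 (DN12594_c0_g1), of a family of zinc finger regulators of light responses, had 3 counts in the controls and 105 under water deficit, 31.0-fold higher after scaling (95% exact interval 10.3 to 153, counting error only; FDR = 5.1e-07). CONSTANS-like 9 (DN2969_c0_g1) rose from 0.0842, 0.214 and 0.166 CPM to 1.51, 1.36 and 1.01 CPM (log2FC 2.91 ± 0.50 (SE), FDR = 4.2e-04). CONSTANS-like 16 (DN21251_c0_g1) had no counts in the controls and 13 under water deficit. With the control group set to a floor of 3 counts this is 3.84-fold higher, a value without an interval and no lower limit. The call was lost without control 1, control 2, control 3, salt 2, water deficit 1 or water deficit 3 (FDR = 0.011 to 0.022). Another member of the family, CONSTANS-like 1 (DN6737_c0_g1), fell from 10.3, 7.58 and 8.06 CPM to 0.794, 1.49 and 0.70 CPM (log2FC -3.27 ± 0.25 (SE), FDR = 1.2e-07). The clock activator REVEILLE 8 (DN5511_c0_g1) fell from 3.11, 3.22 and 2.99 CPM to 0.318, 0.272 and 0.175 CPM (log2FC -3.68 ± 0.36 (SE), FDR = 1.4e-06), and the pseudo-response regulator APRR9 (DN7733_c0_g2) from 23.3, 20.2 and 19.1 CPM to 3.41, 1.36 and 2.06 CPM (log2FC -3.15 ± 0.24 (SE), FDR = 1.1e-07). APRR1 (DN7862_c0_g1), an evening component of the clock in Arabidopsis, leaned the other way without passing the fold limit (log2FC 0.82, FDR = 0.0024), and PIF3 (DN6059_c0_g2) was no DEG (log2FC -0.64, FDR = 0.11). The hour at which each group was harvested is not given in the sources used here, and its part in these differences was not tested.

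Water channels were few, with 4 tested, of which 3 fell and 1 rose, or 1 and 1 with library totals. Aquaporins pass water across membranes, PIP types at the plasma membrane and TIP types at the vacuole. TIP4-1 (DN1704_c0_g1) rose from 0.842, 0.786 and 1.5 CPM to 2.94, 5.44 and 3.02 CPM (log2FC 1.79 ± 0.31 (SE), FDR = 4.3e-04). An aquaporin-like transcript (DN14162_c0_g1) fell from 1.68, 2.0 and 2.82 CPM to 0.0794, 0.136 and 0.0875 CPM (log2FC -4.43 ± 0.49 (SE), FDR = 5.8e-06), as did DN27212_c0_g1 (log2FC -1.92, FDR = 8.4e-04). PIP2-5 (DN1224_c0_g1; log2FC -1.82, FDR = 0.0046) lost its call without control 1, control 2, control 3 or water deficit 3 (FDR = 0.015 to 0.058).

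Flavonoid and phenylpropanoid transcripts had the highest group median (1.27), with 4 of 15 tested up-regulated and 2 down-regulated, or 2 and 2 without control 3. Chalcone synthase opens flavonoid synthesis. Its transcript DN6813_c0_g2 rose from 0.505, 0.429 and 0.499 CPM to 1.75, 4.21 and 3.24 CPM (log2FC 2.63 ± 0.39 (SE), FDR = 1.0e-04), and DN6813_c0_g5 from 4.88, 3.79 and 3.99 CPM to 6.99, 27.3 and 11.9 CPM (log2FC 1.83 ± 0.36 (SE), FDR = 0.0014). In both, water deficit 2 was the highest library. The call of DN6813_c0_g5 was lost without control 2 or control 3 (FDR = 0.014 to 0.016), and another transcript of the component, DN6813_c0_g1, was called only without water deficit 1 (log2FC 1.67, FDR = 0.0014; with all libraries log2FC 1.33, FDR = 0.014). 4-coumarate-CoA ligase-like 5 (DN23237_c0_g1; log2FC 2.06, FDR = 0.002) lost its call without control 1, control 3 or water deficit 1 (FDR = 0.011 to 0.016). A flavonoid 3-hydroxylase-like transcript (DN12801_c0_g1) fell from 1.77, 3.15 and 2.16 CPM to 0.0794, 0 and 0.131 CPM (log2FC -4.58 ± 0.50 (SE), FDR = 5.1e-06), an isoflavone 2-hydroxylase-like transcript (DN41_c0_g1) had log2FC -2.60, FDR = 9.9e-06, and cinnamoyl reductase 1-like (DN4977_c0_g2; log2FC 0.69, FDR = 0.057) was no DEG.

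Of 22 tested cell-wall transcripts 8 fell and 1 rose (median log2FC -0.81). Cellulose synthase-like proteins make wall glucans or related glycosides, and G2 (DN23693_c0_g1) fell from 17.0, 16.7 and 16.1 CPM to 0.0794, 0.136 and 0.481 CPM (log2FC -5.78 ± 0.32 (SE), FDR = 3.8e-09), among the largest declines with a name. G3 (DN2188_c0_g1; log2FC -3.97, FDR = 3.0e-06) and alpha-L-arabinofuranosidase 1 (DN1325_c0_g1; log2FC -3.42, FDR = 1.1e-07) fell as well. Against salt 8 members were lower and 1 higher under water deficit, and without water deficit 1, 2 and 3 in turn 5, 9 and 4 were lower. Beta-galactosidase 12 (DN7302_c0_g2), which trims wall galactans, rose under water deficit from 0.758, 0.50 and 0.249 CPM to 3.81, 2.17 and 1.79 CPM (log2FC 2.33 ± 0.38 (SE), FDR = 2.8e-04) but reached 17.1, 21.9 and 18.3 CPM under salt (difference -2.90 ± 0.26 (SE) on the log2 scale, FDR = 1.0e-05). Beta-galactosidase 1 (DN7905_c1_g2) measured 9.29, 11.6 and 10.9 CPM under water deficit, inside or near the control range of 10.0, 7.15 and 9.06 CPM (log2FC 0.27, FDR = 0.41), and 64.2, 56.5 and 76.9 CPM under salt (difference -2.64 ± 0.21 (SE) on the log2 scale, FDR = 4.3e-06). A xyloglucan endotransglycosylase (DN5799_c0_g3), which loosens walls, was likewise no DEG against control (log2FC -0.02, FDR = 0.99) and was lower than under salt by a difference of -2.47 ± 0.32 (SE) on the log2 scale, FDR = 2.5e-04. These 3 differences from salt were called whichever library was left out.

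Over all tested transcripts, 217 (1.75%) were higher and 293 (2.36%) lower under water deficit than under salt. The sum of 510 became 160, 982 and 106 without water deficit 1, 2 and 3 in turn, and 260, 210 and 282 without the salt libraries 1, 2 and 3. Of the 165 tested transcripts selected by the naming rules given with the processing, 42 differed between the stresses, and 20 did so whichever library was left out. The further named transcripts DN8208_c0_g1, DN8278_c0_g3 and DN7781_c1_g1 are not among the 165.

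Of 30 tested transcripts of plastid gene expression 2 rose and 4 fell under water deficit, and the median log2FC was 0.26. Of all tested transcripts 2.75% rose and 6.95% fell, and of the 896 with a functional name 125 rose and 356 fell. Against salt 13 of the 30 were lower and none higher, with a median difference of -1.04, but 17 were lower without water deficit 2 and 1 was lower without water deficit 1 or without water deficit 3. The 29 kDa ribonucleoprotein (DN7906_c0_g2), which binds plastid RNA, measured 11.6, 13.7 and 14.2 CPM in controls, 18.3, 24.5 and 20.9 CPM under water deficit and 44.5, 40.8 and 47.0 CPM under salt (log2FC 0.69, FDR = 0.016 against control). A similar transcript, DN28249_c0_g1, narrowly missed the fold limit (log2FC 0.96, FDR = 0.0016) and was called up-regulated without control 3 or water deficit 1 (log2FC 1.02 and 1.13). The members that fell include a sigma factor of plastid transcription (DN16614_c0_g1), from 14.5, 17.3 and 13.5 CPM to 2.22, 1.77 and 2.23 CPM (log2FC -2.83 ± 0.20 (SE), FDR = 5.0e-08), elongation factor G (DN7510_c0_g2; log2FC -2.0, FDR = 2.2e-05) and an initiation factor (DN8361_c0_g1; log2FC -1.92, FDR = 7.7e-06). Trigger factor-like transcripts, which fold new proteins, rose: DN2186_c0_g1 had log2FC 1.26, FDR = 3.7e-04, and DN2186_c0_g2 had log2FC 1.74, FDR = 0.0053 but not without control 1, control 3, water deficit 1 or water deficit 3 (FDR = 0.012 to 0.042).

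**Figure D5:**
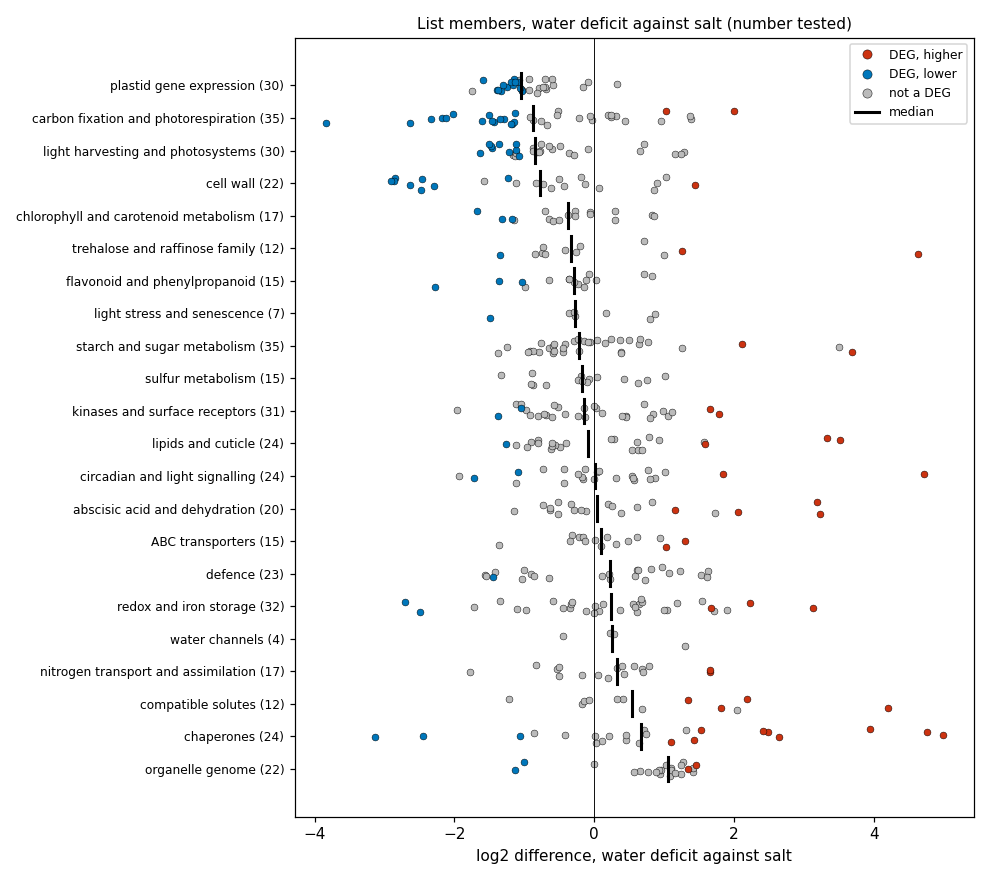
Each point is 1 tested transcript of a gene group, placed by its log2 difference between water deficit and salt on the horizontal axis; red points are DEGs higher under water deficit, blue points DEGs lower under water deficit, grey points neither, and black bars are group medians, with the number tested in parentheses. Among the groups shown, medians run from -1.04 for plastid gene expression to 1.06 for organelle genome names. The group of viral names, with 3 tested transcripts, is not shown and had a median of -1.15.

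Of 31 tested kinases and surface receptors 12 fell and 1 rose, with a median log2FC of -0.08 that was 0.32 with library totals, when 5 fell and 2 rose. CBL-interacting kinases relay calcium signals, and CIPK1 (DN6685_c0_g1) went from 2.19, 2.29 and 3.49 CPM to 0.715, 0 and 0.35 CPM (log2FC -2.72 ± 0.46 (SE), FDR = 4.2e-04). A CIPK6-like transcript (DN23369_c0_g1; log2FC -2.64, FDR = 1.7e-05) and a lectin receptor kinase (DN1665_c0_g1; log2FC -2.16, FDR = 4.6e-05) fell too, whereas another CIPK6-like transcript (DN6944_c0_g1; log2FC 0.43, FDR = 0.11) and an inactive receptor-like kinase (DN7958_c0_g1; log2FC -0.15, FDR = 0.68) were no DEGs. The leucine-rich-repeat receptor kinase that rose (DN24539_c0_g1; log2FC 1.73, FDR = 0.0031) lost its call without control 1, control 2, control 3 or water deficit 3 (FDR = 0.013 to 0.021).

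ABC transporters move hormones, lipids and conjugates with ATP, and 7 of 15 tested fell and 1 rose (median log2FC -1.39), or 0 and 2 with library totals. Without control 1 or water deficit 1 4 fell, and without water deficit 2 3 rose. The member that rose was C13 (DN3379_c0_g1), from 0.421, 0.50 and 0.166 CPM to 1.98, 1.22 and 1.97 CPM (log2FC 2.28 ± 0.40 (SE), FDR = 5.0e-04). The B1 transcripts, named for auxin exporters in Arabidopsis, missed a limit with all libraries and passed without water deficit 2. DN8314_c1_g1 had log2FC 0.86, FDR = 0.0053, and log2FC 1.01, FDR = 4.7e-04 without it, and DN8314_c0_g1 had log2FC 1.44, FDR = 0.011, and log2FC 1.68, FDR = 4.1e-04 without it. C3-like (DN20284_c0_g1; log2FC -1.92, FDR = 9.4e-05) and the B13 transcripts DN16165_c0_g1 (log2FC -1.81, FDR = 2.2e-05) and DN1230_c0_g1 (log2FC -1.77, FDR = 1.0e-04) fell. G22 (DN6606_c0_g1), known for stomatal regulation in Arabidopsis, was no DEG (log2FC -0.23, FDR = 0.51).

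Of 23 tested defence transcripts 6 rose and 9 fell (median log2FC -0.62), or 6 and 3 with library totals. A p21-like protein (DN6908_c1_g1), of the thaumatin class, went from 0.337, 0.286 and 0.415 CPM to 7.38, 0.544 and 9.94 CPM (log2FC 4.23 ± 0.69 (SE), FDR = 2.8e-04), and the PR-4-like transcript DN2086_c0_g1 from 0.337, 0.429 and 0.415 CPM to 5.0, 0.408 and 5.56 CPM (log2FC 3.35 ± 0.62 (SE), FDR = 8.5e-04). Both were high in water deficit 1 and 3 and at or just above the controls in water deficit 2, and PR-4 lost its call without water deficit 3 (FDR = 0.012). HSPRO2 (DN7314_c0_g2), a nematode-resistance homolog, rose evenly from 0.337, 0.0715 and 0 CPM to 1.75, 1.36 and 1.88 CPM (log2FC 3.64 ± 0.50 (SE), FDR = 5.4e-05). A thaumatin-like protein (DN2631_c0_g1; log2FC -3.96, FDR = 2.1e-05), endochitinase EP3 (DN6479_c0_g1; log2FC -3.71, FDR = 4.9e-06) and the jasmonate-pathway repressor TIFY 10A (DN25570_c0_g1; log2FC -3.14, FDR = 2.9e-06) fell. A defensin-like protein (DN11339_c0_g1; log2FC -0.62, FDR = 0.38) and WRKY 11 (DN13816_c0_g1; log2FC -0.17, FDR = 0.77) were no DEGs.

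Several of the largest named changes belonged to no group. Saccharopine dehydrogenase (DN19721_c0_g1), the enzyme of lysine breakdown, went from 0.253, 0.429 and 0.332 CPM to 16.0, 0.951 and 9.23 CPM (log2FC 4.71 ± 0.69 (SE), FDR = 9.8e-05), again with a far smaller rise in water deficit 2. A zinc finger protein named for At1g68190 (DN214_c0_g1) rose evenly from 0.337, 0.0715 and 0.499 CPM to 2.94, 2.85 and 2.71 CPM (log2FC 3.24 ± 0.37 (SE), FDR = 8.8e-06). Branched-chain amino acid aminotransferase 2 (DN23247_c0_g1), of leucine, isoleucine and valine metabolism, rose from 0.168, 0.715 and 0.748 CPM to 3.81, 2.17 and 2.1 CPM (log2FC 2.26 ± 0.39 (SE), FDR = 4.9e-04). No dry library overlapped a control in these. Downward, a homeodomain-like protein (DN7488_c0_g2) went from 34.3, 37.9 and 42.0 CPM to 1.11, 0.951 and 1.23 CPM (log2FC -5.07 ± 0.22 (SE), FDR = 5.1e-10), and a proline-rich protein (DN2620_c0_g1) from 4.29, 5.22 and 7.23 CPM to 0.0794, 0.136 and 0.175 CPM (log2FC -5.25 ± 0.40 (SE), FDR = 1.1e-07). Mitochondrial uncoupling protein 5 (DN19649_c0_g1), a carrier of the inner membrane, fell from 6.73, 9.22 and 8.56 CPM to 0.397, 0.136 and 0.35 CPM (log2FC -4.63 ± 0.29 (SE), FDR = 2.0e-08). It held 4.2, 2.89 and 3.46 CPM under salt, and its difference of -3.39 ± 0.31 (SE) on the log2 scale, FDR = 1.0e-05 was called whichever library was left out.

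Some large changes fell on transcripts without a name. DN7689_c0_g2 rose from 0.337, 0.357 and 0.0831 CPM to 11.2, 4.48 and 9.15 CPM (log2FC 4.98 ± 0.40 (SE), FDR = 1.9e-07). DN8403_c2_g3 rose from 0.421, 1.0 and 0.665 CPM to 19.7, 2.72 and 22.5 CPM (log2FC 4.44 ± 0.56 (SE), FDR = 2.2e-05) and was at 0.183, 0.162 and 0.216 CPM under salt, a difference of 6.37 ± 0.61 (SE) on the log2 scale, FDR = 1.2e-05, which was called whichever library was left out. The 2 largest declines rested on a single control. DN8386_c0_g2 measured 1.35, 1266 and 1.99 CPM in controls and 0.0794, 0.136 and 0.175 CPM under water deficit (log2FC -11.51 ± 2.64 (SE), FDR = 0.005), and its component partner DN8386_c0_g1 measured 1.94, 2289 and 3.49 CPM and 0.318, 0.272 and 0.306 CPM (log2FC -11.27 ± 2.53 (SE), FDR = 0.0042). Their calls were lost without control 2, water deficit 1 or water deficit 3 (FDR = 0.028 to 0.26) and without control 2, water deficit 1 or water deficit 3 (FDR = 0.024 to 0.21), and they were also uneven under salt, at 913, 14.4 and 30.5 CPM and 1335, 25.5 and 51.5 CPM.

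Leaf identity and foreign RNA were checked with the same libraries. Rubisco small chain, phosphoenolpyruvate carboxylase and the antenna transcripts, which mark green leaf tissue, were present in every control, and among those named above only DN7461_c0_g1 was at 0 in a dry library (water deficit 2). None of the 3 tested transcripts with viral names was a DEG. A coat protein (DN4611_c0_g1) and an RNA-dependent RNA polymerase (DN2163_c0_g1) did not pass the filter. Neither had a count in any control or dry library. In salt 1, 2 and 3 they had 0, 302 and 400 counts and 1, 403 and 646 counts. The RNA-dependent RNA polymerase DN8320_c0_g1 measured 51.4, 51.8 and 54.6 CPM in controls and 49.3, 124 and 23.1 CPM under water deficit (log2FC 0.31, FDR = 0.75), highest in water deficit 2, and DN7607_c0_g1 measured 3.28, 14.7 and 0 CPM and 13.0, 20.4 and 11.6 CPM (log2FC 1.28, FDR = 0.23). Whether DN8320_c0_g1 and DN7607_c0_g1 are of viral origin was not tested, nor was their part in the division of the dry libraries. Of 22 tested transcripts with names of organelle-genome genes 1 fell and none rose (4 fell without water deficit 2, and 0 with library totals), the DEG being a Ycf36-like transcript (DN4651_c0_g2; log2FC -1.67, FDR = 2.2e-05). Members were matched by name only, and whether an organelle or the nuclear genome encodes that transcript was not tested. The summed level of the 22 was 216820 to 295816 CPM in controls and 104701 to 249538 CPM under water deficit, highest in water deficit 2, and the leading transcript, Ycf68 (DN8346_c1_g4), had log2FC -0.61, FDR = 0.38.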

How the data were processed

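RNA of A. hypochondriacus leaves was sequenced as single-end reads from TruSeq libraries on an Illumina NextSeq. The authors assembled the transcriptome de novo with Trinity, and the submitters' processing notes name FastQC, Trimmomatic, Bowtie2 2.3.0 and edgeR. The deposited values are raw counts of uniquely mapped reads per transcript, so reads shared by near-identical transcripts are missing or split. The tables of the other species were not used here. No reference genome was at hand, and no sequence is shown.

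Counts of the 9 libraries (3 control, 3 water deficit, 3 salt, 10920900 to 20529300 each) were filtered with filterByExpr, scaled by TMM and fitted with the quasi-likelihood test of edgeR 4.0.16 in R 4.3.3, with 1 model of 3 groups (6 residual degrees of freedom) and Benjamini-Hochberg adjustment over 12429 transcripts. The FDR and the differences from salt come from this fit. DEGs had an FDR below 0.01 and a log2FC past 1. SE is the log2FC divided by the square root of its F value. Ratios of transcripts with 3 or fewer counts in a group carry exact 95% intervals, which cover counting error only. The exception is CONSTANS-like 16, with no counts in the controls, whose ratio is against a floor of 3 counts and has no interval. The median tested transcript had 21 counts per library.

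Named transcripts were, per gene group, the 3 DEGs with the largest change in each direction and the 2 most abundant that were no DEGs. To these were added, in each direction, the 10 named and 2 unnamed DEGs of largest change among those whose libraries did not overlap and whose mean log2 CPM reached 1, and transcripts the study discusses. Further named transcripts (DN8208_c0_g1 and DN8278_c0_g3) are leaf markers, and DN7781_c1_g1 was named after its values were seen. Members, groups and tests were chosen with earlier results of these data known.

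On simulated counts for water deficit against control (11072 transcripts tested), 83 of 99 transcripts changed by a log2FC of 2 and 94 of 99 changed by 3 were called, with 3 calls among 10874 that were not changed. The changed transcripts were drawn only from those above a minimum mean count. All dry libraries were given the same level and dispersion per transcript. The simulation thus held no library that stood apart, and its rates need not apply to these data. Alternatives were the edgeR exact test, DESeq2 1.42.0, other scalings, filters and limits, thinning, a replicate block and leaving out each library.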

Additional observations from a re-analysis of the deposited data

How the results depend on the processing

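The 1206 DEGs (342 up, 864 down) became 1204 with the exact test on 6 libraries, 1043 with DESeq2, 977 with a quasi-likelihood fit on 6 libraries, 1201 with RLE factors, 1415 without a filter, 1077 with CPM above 1, 1187 without the 20 most abundant transcripts and 1706 at an FDR of 0.05 (637 up). A log2FC limit of 2 left 454 (122 up, 332 down), library totals 645 (313 down) and counts thinned to equal depth outside the 20 most abundant 728 (215 up, 513 down). Leaving out 1 library gave 789 to 1580 DEGs (176 to 540 up, 613 to 1040 down). Of gene-group DEGs, 145 (27 up, 118 down) passed a limit of 2, and 121 were down with library totals. The 510 differences from salt (217 higher, 293 lower) became 893 at an FDR of 0.05 (400 and 493), 128 at a limit of 2 (77 and 51), 322 with library totals (63 higher) and 134 after thinning (53 and 81). Without a filter 461 were lower. Leaving out 1 library gave 106 to 982 (57 to 441 higher, 49 to 541 lower). Settings on 6 libraries give no value against salt. Depth outside the 20 most abundant transcripts, lowest in water deficit 2, limits transcripts of a few counts. Beyond these constructions the cause was not tested.

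Libraries with the same number did not deviate together (r of deviations 0.02, 0.02 and -0.04 for control and water deficit 1, 2 and 3), and with a replicate block 1114 DEGs were called (301 up, 813 down). Of the DEGs selected by the naming rules, 3 were not called with the block: PP2C 49 (FDR = 0.014 by edgeR) and the unnamed DN8386_c0_g1 and DN8386_c0_g2 (FDR = 0.041 and 0.032).

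Signs turned only among transcripts that were no DEGs. With library totals the log2FC was 0.22 for 3-ketoacyl-CoA synthase 10, 0.20 for WRKY 11, 0.046 for the senescence regulator, 0.035 for Hsp70 DN4358_c0_g1, 0.13 for ABC transporter G22, 0.26 for the inactive receptor-like kinase and 0.024 for heat shock cognate protein 80. After thinning the synthase had 0.070. The xyloglucan endotransglycosylase had 0.023 without the 20 most abundant transcripts, 0.050 with CPM above 1, 0.014 with DESeq2, 0.0090 with RLE factors, 0.11 with the exact test, 0.32 with library totals and 0.033 with the 6-library fit. When single libraries were left out, the log2FC ran from -0.56 to 0.33 for that enzyme, -0.38 to 0.16 for the synthase, -0.40 to 0.080 for WRKY 11, -0.28 to 0.70 for beta-amylase 1, -0.046 to 0.21 for NRT1/PTR DN6970_c0_g1, -0.17 to 0.31 for uroporphyrinogen decarboxylase 1, -0.21 to 1.11 for choline monooxygenase, -0.32 to 0.086 for the receptor-like kinase, -0.53 to 0.71 for the RNA polymerase DN8320_c0_g1 and -0.29 to 0.70 for the phosphoethanolamine methyltransferase. The methyltransferase had -0.097 with the replicate block.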
